A study of Mus musculus with 6 samples.

Results

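Integrins are the cell's main receptors for the extracellular matrix, and each is a pair of 1 alpha and 1 beta chain. Laminins are the adhesive proteins of basement membranes, and each is a trimer of an alpha, a beta and a gamma chain. The genes described here are rows of the deposited expression table whose symbols follow the naming patterns of integrin alpha (Itga), integrin beta (Itgb) or laminin chains (Lama, Lamb, Lamc). The naming rule reads gene symbols alone. The 34 chains described here, of the 16583 genes in the table, are 17 integrin alpha chains, 7 integrin beta chains, 5 laminin alpha chains, 3 laminin beta chains and 2 laminin gamma chains. Itga8 and Itgb6 were not among the rows used here.

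The alpha chain of an integrin largely sets what it binds. Alpha3, alpha6 and alpha7 bind laminin, with beta1 or, for alpha6, also beta4, the chain of hemidesmosomes. Alpha1, alpha2, alpha10 and alpha11 bind collagen with beta1, alpha5 and alphaV bind RGD motifs in fibronectin and vitronectin, and beta2 and beta7 chains belong to leukocyte integrins. A laminin trimer is secreted only once its alpha chain has joined a beta and gamma pair, and most laminin-binding integrins contact the end domains of the alpha chain.

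The samples were cultures of MC38, a mouse line labelled as colorectal cancer cells. By their titles, 3 libraries were KOCtrl (control) and 3 were KOSRC1, in which SRC-1, the nuclear receptor coactivator encoded by Ncoa1, was knocked out. The study asked how SRC-1 acts on the immune checkpoint ligand PD-L1, and the adhesion genes are described here as a group of the same transcriptome. All 6 had been kept for 24 hours with interferon gamma (100 ng per mL), so no untreated cells are compared. How the knockout was made, whether it is 1 clone or a pool, what the control cells carry, and whether replicates were separate cultures are not given in the sources used here, and the spread on which the p-values rest may therefore be technical. Groups follow the titles, all of which name KOSRC-1 in the knockout, although the genotype field gives KOSRC-2 for library 2 and KOSRC-3 for library 3.

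Totals were 16329459 to 17207625 expected counts per library. Ncoa1 was at 18.2, 18.5 and 18.0 CPM (a library-size scale with TMM factors applied) in KOCtrl 1, 2 and 3, against 16.7, 10.1 and 16.1 CPM in KOSRC1 libraries 1, 2 and 3. Every KOSRC1 library was below every control, yet Ncoa1 was not called (edgeR log2 fold change -0.35, SE 0.184, adjusted p = 0.179), so KOSRC1 is used below as a label. KOSRC1 library 2 stood apart. Its log CPM correlated across genes at 0.979 and 0.982 with KOSRC1 libraries 1 and 3, which correlated with each other at 0.997, as the controls did among themselves (0.996 to 0.997). Where a call, a direction or a count changes by over 1.5 times without it, the value without it is given beside the result.

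The epithelial label was set against 14 markers, of which 12 were in the table and 2 passed the filter on low counts. Epcam, Cdh1, Krt18, Krt19 and Cldn3 each had at most 3 counts over all 6 libraries, and the summed level of the list was 1.75 to 2.43 CPM in controls and 1.70 to 1.73 CPM in KOSRC1. The data thus go against an epithelial profile at the RNA level. Fibroblast and mural markers, 8 of 8 in the table and 5 tested, summed to 468 to 499 CPM in controls and 177 to 211 CPM in KOSRC1, mainly through the proteoglycan gene Dcn, and 3 of them (Dcn, Lum and Pdgfrb) were called lower. Of all genes tested, 18.5% were called lower. The other 2 tested markers were not called, with log2 fold changes of 0.84 for Acta2 (edgeR adjusted p = 0.0728) and 0.13 for Pdgfra (adjusted p = 0.53). The untested ones had few counts, with 8 in controls and 7 in KOSRC1 for Col1a1, 6 and 9 for Col1a2, and 18 and 0 for Rgs5. The part of the fibroblast and mural markers in the results below was not tested. In bulk RNA, fewer cells expressing a gene and less of its RNA per cell cannot be told apart.

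Of the 34 chains, 19 were expressed in the sense that they passed edgeR's filter on low counts, which here needed about 0.59 CPM in at least 3 libraries. They were 8 integrin alpha, 6 integrin beta, 2 laminin alpha and 2 laminin beta chains and 1 laminin gamma chain. By a mean of at least 1 TPM (a scale that takes out transcript length) in either group, 13 chains were expressed, and by a mean of at least 1 CPM, 18. No laminin alpha chain reached 1 TPM, whereas 5 integrin alpha, 5 integrin beta and 2 laminin beta chains and 1 laminin gamma chain did. The most abundant chain was Itgb1, the common partner of most alpha chains, at 158, 143 and 156 TPM in the controls and 219, 131 and 213 TPM in KOSRC1. Next in the controls came Itga5, the fibronectin receptor chain, with 61.5 to 64.8 TPM in controls and 60.04 to 69.7 TPM in KOSRC1. Itgb5, the vitronectin receptor chain, had 52.3 to 56.0 TPM in controls and 78.2 to 82.8 TPM in KOSRC1. In the controls the ranges of Itga5 and Itgb5 did not overlap, nor did they in KOSRC1, where their order was the opposite.

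**Figure D1:**
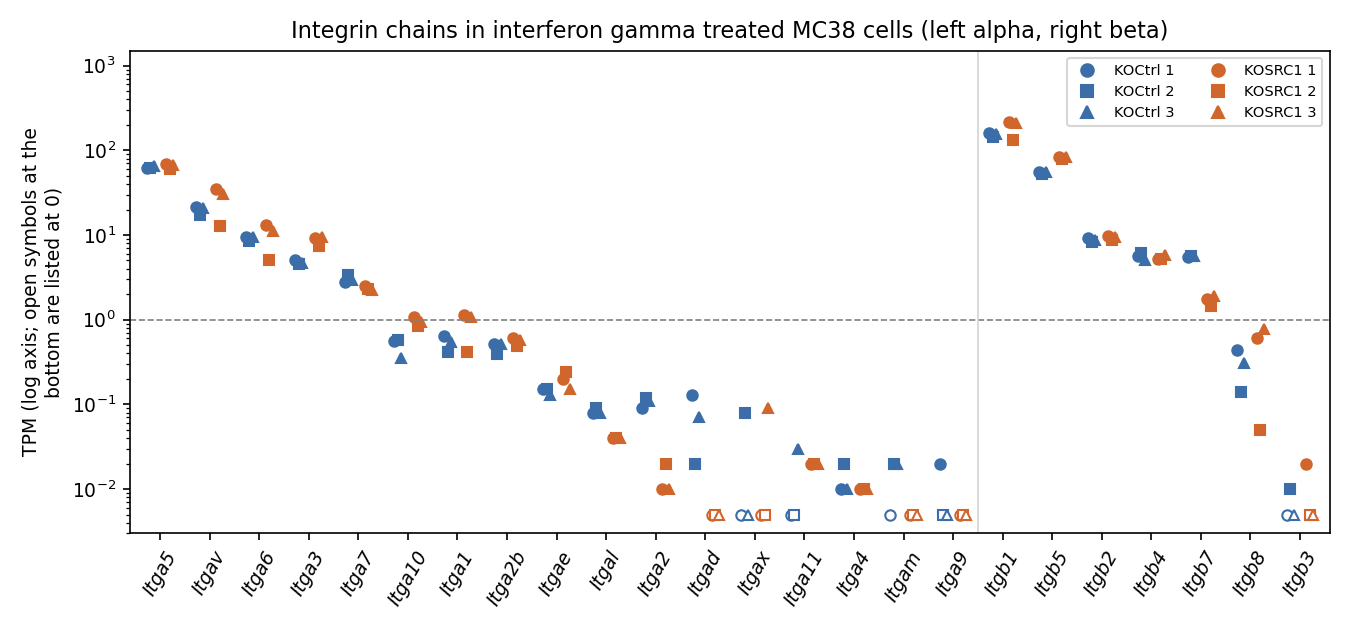
TPM on a log axis of the 24 integrin chains in each library (blue KOCtrl, orange KOSRC1; circle, square and triangle for replicates 1, 2 and 3), with a dashed line at 1 TPM and open symbols for values listed at 0. Itgb1 and Itga5 lead the beta and alpha chains, Itgb7 is lower in all 3 KOSRC1 libraries, and KOSRC1 library 2 lies below the other 2 for Itgav, Itga6, Itga1 and Itgb8.

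Between the groups, 6 of the 19 tested chains were called at an adjusted p under 0.05 (edgeR's quasi-likelihood test), which is 31.6% of them against 35.7% of all 11656 tested genes. The share of called chains is thus close to that of all genes. Itga3, Itga10, Itgb5, Lamb2 and Lama4 were higher in KOSRC1 (5 chains, where 17.1% of all genes were called higher), and Itgb7 was lower (1 chain, where 18.5% of all genes were called lower). The other 13 did not pass. The median log2 fold change was 0.18 over the 19 chains and 0.016 over all genes tested, and a single chain, Itgb7, differed by 2-fold or more. CPM did not overlap between the groups for 10 of 19 chains (52.6%), and for 51.4% of all genes. KOSRC1 lay above the controls in 6 of them and below in 4, where 24.8% and 26.5% of all genes did so.

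Both counts depend on KOSRC1 library 2. Without it, 21 chains passed the filter and 16 were called (76.2%, 11 higher and 5 lower), among them all 6 above, against 69.6% of all genes (34.6% higher and 35.0% lower). With each library's dependence on transcript length and GC content taken out, 9 of 19 were called (5 higher and 4 lower), among them 5 of the 6, against 51.6% of all genes (28.9% higher and 22.8% lower). Under that setting Lamb2 was not called (adjusted p = 0.0716).

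**Figure D2:**
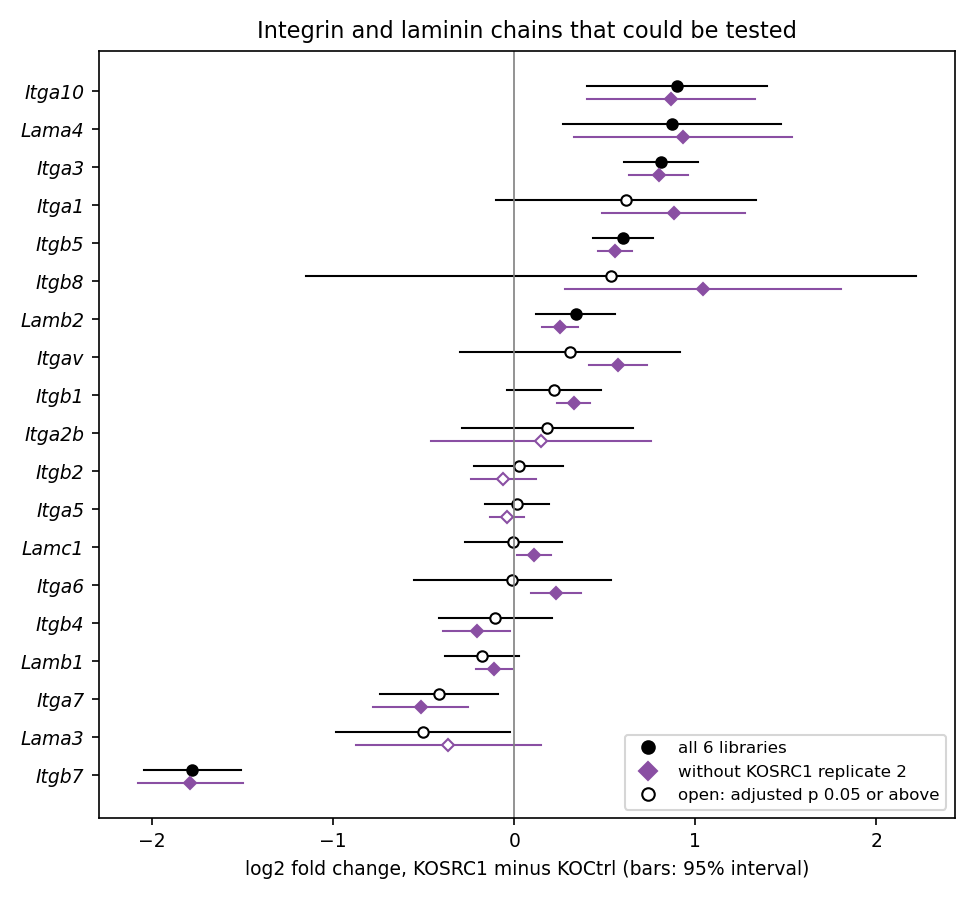
Log2 fold change of the 19 tested chains, KOSRC1 minus KOCtrl, with 95% intervals, over all 6 libraries (black) and without KOSRC1 library 2 (purple), with open symbols where the adjusted p was 0.05 or above. Itgb7 lies farthest from 0 at -1.78. Once that library is left out, the intervals of Itgav, Itga6, Itga1, Itgb1, Itgb8 and Lamc1 narrow and lie above 0. Those of Itgb4 and Lamb1 narrow and lie below 0, and that of Lama3 comes to cover 0.

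Sequences next to the gene start are shown for 4 of the 5 chains that rose, to set the windows of chains with the same direction side by side. Promoter windows from RefSeq (GRCm38.p6) matched 21 of the 34 chains, and those printed are the windows of Itga3, Itga10, Itgb5 and Lamb2, all higher in KOSRC1. Those of Lama4, which also rose, and Itgb7, which fell, are not shown. Each is written 5′ to 3′ on the gene's own strand and ends at the base before the annotated gene start. Capitals mark matches, on either strand, to 4 motifs: the GC box GGGCGG, the AP-1 site TGANTCA, the interferon gamma activated (GAS) element TTCNNNGAA and the E box CACGTG. The windows are chr11:95076845-95076964 (minus strand, 120 bases) for Itga3, chr3:96645334-96645583 (plus strand, 250 bases) for Itga10, chr16:33829415-33829664 (plus strand, 250 bases) for Itgb5 and chr9:108479612-108479846 (plus strand, 235 bases) for Lamb2.
Itga3: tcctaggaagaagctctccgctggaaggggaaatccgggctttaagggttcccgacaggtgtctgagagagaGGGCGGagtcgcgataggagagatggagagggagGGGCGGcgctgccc
Itga10: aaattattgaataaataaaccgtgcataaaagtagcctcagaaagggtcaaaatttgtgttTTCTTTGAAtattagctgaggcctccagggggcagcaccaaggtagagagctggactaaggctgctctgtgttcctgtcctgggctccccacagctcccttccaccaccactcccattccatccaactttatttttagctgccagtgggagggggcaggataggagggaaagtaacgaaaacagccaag
Itgb5: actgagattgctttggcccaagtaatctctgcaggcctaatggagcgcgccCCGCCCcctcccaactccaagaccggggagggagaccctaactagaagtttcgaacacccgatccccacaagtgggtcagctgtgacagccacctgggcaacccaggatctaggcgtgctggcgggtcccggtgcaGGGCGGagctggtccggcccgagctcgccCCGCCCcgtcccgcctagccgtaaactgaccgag
Lamb2: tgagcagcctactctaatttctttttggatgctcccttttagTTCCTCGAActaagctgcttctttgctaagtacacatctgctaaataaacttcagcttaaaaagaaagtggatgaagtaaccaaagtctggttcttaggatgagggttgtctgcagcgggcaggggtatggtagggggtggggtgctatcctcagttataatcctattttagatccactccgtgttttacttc
Itga3 held 2 GC boxes, and 12.8% of 32851 promoter windows cut to that length held at least 1. All windows were cut by keeping their first bases at the 5′ end. The cut to 120 bases thus left out the bases nearest the start, whereas the printed Itga3 window ends at its gene start. The 12.8% is therefore not a share for the same position. Itgb5 held 3 GC boxes, which 32.7% of windows of its length held, and neither Itga10 nor Lamb2 held any. Itga10 and Lamb2 each held 1 GAS match, with 7.0% and 6.6% of windows of their lengths holding it. No AP-1 site or E box was in these 4 windows. No match overlapped a match to another motif, and no motif was found in all 4 windows.

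Itga3 was the laminin receptor chain that was called over all 6 libraries. It encodes the alpha3 chain, which pairs with beta1 and is known for binding the laminins of epithelial basement membranes. It was at 17.4, 15.8 and 15.9 CPM in controls and 27.4, 29.2 and 29.5 CPM in KOSRC1. All 3 KOSRC1 libraries, library 2 among them, lay above all controls. The chain rose 1.75-fold (log2 fold change 0.81, SE 0.0875, 95% interval 0.61 to 1.02, edgeR adjusted p = 0.000642). Itga3 (gene 16400) lies on chromosome 11, from 95044475 to 95076844 on the minus strand, and no annotated gene overlaps it.

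Itga6, whose chain binds laminin with beta1 or beta4, gave no call. It was at 40.3, 36.8 and 39.2 CPM in controls and 48.5, 24.3 and 42.5 CPM in KOSRC1, so libraries 1 and 3 were above the controls and library 2 was below them. The log2 fold change was -0.011 (95% interval -0.55 to 0.53, edgeR adjusted p = 0.977). Without library 2 it was 0.23 (adjusted p = 0.00343), which turns the direction. Itga6 overlaps Gm13663 and Gm13662 on the same strand and Gm17250 on the opposite strand, so reads of shared stretches cannot be assigned with certainty.

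Itga7, the main laminin receptor chain of muscle, was at 8.45, 10.1 and 8.25 CPM in controls and 6.40, 7.63 and 6.09 CPM in KOSRC1. All KOSRC1 libraries were below all controls, but the difference did not pass (log2 fold change -0.41, SE 0.139, edgeR adjusted p = 0.0536). It passed without library 2 (-0.52, adjusted p = 0.000828) and in the fit free of length and GC trends (-0.48, adjusted p = 0.00774). Itga7 overlaps Mettl7b on the opposite strand, and the library kit is not stated to mark strand, so their reads cannot be told apart where they overlap. The same holds for Itgav with Gm13684, Itgb4 with B230344G16Rik and Lama3 with Gm29200, each on the opposite strand.

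Itgb1, which pairs with all 3 of these alpha chains, was at 461, 430.2 and 452 CPM in controls and 563, 439 and 560.2 CPM in KOSRC1. Library 2 fell within the control range, and the other 2 were above it. The log2 fold change was 0.22 (SE 0.111, 95% interval -0.043 to 0.48, edgeR adjusted p = 0.166), and 0.33 without library 2 (adjusted p = 3.11e-07). It also passed with the length and GC trends removed (0.26, adjusted p = 0.0105).

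Itgb4, the hemidesmosome chain that pairs with alpha6 alone, was at 24.4, 26.8 and 21.5 CPM in controls and 19.6, 25.7 and 22.4 CPM in KOSRC1. The groups overlapped (log2 fold change -0.10, 95% interval -0.41 to 0.21, edgeR adjusted p = 0.57). Without library 2 the value was -0.21 (adjusted p = 0.0419).

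Among the RGD receptors, Itgb5 was called and its usual partner Itgav did not pass. Itgb5 was at 110.4, 113 and 113.5 CPM in controls and 164, 181 and 167 CPM in KOSRC1. All KOSRC1 libraries were above all controls, with library 2 the highest in CPM, though the lowest of KOSRC1 in TPM (82.8, 78.2 and 82.5). The chain rose 1.52-fold (log2 fold change 0.60, SE 0.0715, 95% interval 0.43 to 0.77, edgeR adjusted p = 0.00092). Itgb5 (gene 16419) lies on chromosome 16, from 33829665 to 33949338, and the median log2 fold change of the 355 tested genes of that chromosome was 0.23. The part of that chromosome-wide shift in the result was not tested.

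Itgav, the alpha chain shared by the vitronectin and TGF-beta activating integrins, was at 109.5, 89.9 and 105 CPM in controls. In KOSRC1 it was at 160.2, 75.0 and 142 CPM, with libraries 1 and 3 above and library 2 below the controls. The log2 fold change was 0.31 (SE 0.259, 95% interval -0.30 to 0.92, edgeR adjusted p = 0.385), and 0.57 without library 2 (adjusted p = 1.43e-05).

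Itgb8, the alphaV partner that activates latent TGF-beta, was at 0.933, 0.296 and 0.653 CPM in controls and 1.14, 0.121 and 1.47 CPM in KOSRC1. The groups overlapped widely (log2 fold change 0.53, SE 0.717, edgeR adjusted p = 0.588), and without library 2 the value was 1.04 (adjusted p = 0.0139). Itgb3, the other classic alphaV partner, had 1 count in each group.

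Itga5, which joins beta1 as the main fibronectin receptor, was at 189, 196 and 198 CPM in controls and 189, 211 and 189 CPM in KOSRC1. The groups overlapped, and the 95% interval of the log2 fold change ran from -0.16 to 0.19 around 0.016 (edgeR adjusted p = 0.888). Without library 2 it was -0.040 (adjusted p = 0.443), which turns the sign. Fn1 encodes fibronectin, its ligand, and is named here for this pairing after its values were seen. It rose from 2802 ± 109 to 4577 ± 1032 CPM (SD, n = 3 each), a log2 fold change of 0.71 (edgeR adjusted p = 0.0169).

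Itga2b, the platelet alpha chain that pairs with beta3, was at 1.22, 0.947 and 1.19 CPM in controls and 1.26, 1.33 and 1.23 CPM in KOSRC1. The KOSRC1 libraries were all above the controls by a small margin (log2 fold change 0.18, 95% interval -0.29 to 0.66, edgeR adjusted p = 0.593). Platelet and megakaryocyte markers, 5 of 8 in the table and 1 tested, summed to 3.26 to 3.97 CPM in controls and 5.68 to 12.7 CPM in KOSRC1, mostly Gp1bb, and their part in the level of Itga2b was not tested.

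Of the collagen receptor chains, Itga10 was called. The alpha10 chain is known from cartilage. It was at 1.98, 2.07 and 1.25 CPM in controls and 3.41, 3.45 and 3.05 CPM in KOSRC1, with no overlap. The chain rose 1.86-fold (log2 fold change 0.90, SE 0.212, 95% interval 0.40 to 1.40, edgeR adjusted p = 0.0154). Itga10 (gene 213119) lies on chromosome 3, from 96645584 to 96664519, and overlaps the gene model Gm42957 on the same strand, so reads of the shared stretch cannot be assigned with certainty.

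Itga1, a collagen and laminin receptor chain of mesenchymal cells, was at 2.74, 1.84 and 2.26 CPM in controls and 4.31, 2.06 and 4.10 CPM in KOSRC1. Library 2 lay within the control range and the other 2 above it. The log2 fold change was 0.62 (SE 0.306, edgeR adjusted p = 0.157), and 0.88 without library 2 (adjusted p = 0.000222). Itga1 overlaps Pelo and Gm49395 on the same strand and Gm10734 on the opposite strand, so reads of shared stretches cannot be assigned with certainty. Itga2, the epithelial and platelet collagen receptor chain, was too low to test, with 8, 11 and 9 counts in controls and 1, 2 and 1 counts in KOSRC1. The groups did not overlap, and the summed counts of 28 and 4 give a ratio of 6.92 with a 95% interval of 2.42 to 27.1 that covers counting error only. Itga11 had 2 counts in controls and 3 in KOSRC1.

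Itgb7 gave the widest difference of all 19 chains. Its protein pairs with alpha4 or alphaE in the gut-homing and intraepithelial integrins of lymphocytes. It was at 9.74, 10.5 and 9.91 CPM in controls and 2.75, 2.97 and 3.05 CPM in KOSRC1. The KOSRC1 libraries lay close together and far below every control. The chain fell by 1.78 on the log2 scale (SE 0.114, 95% interval -2.05 to -1.51), which is 3.43-fold lower, with an edgeR adjusted p of 7.88e-05. Itgb7 (gene 16421) lies on chromosome 15, from 102215994 to 102233405 on the minus strand.

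Neither partner of Itgb7 passed the filter. Itga4, the alpha4 chain, had 5 counts in controls and 3 in KOSRC1. Itgae, the alphaE chain, had 7, 7 and 6 counts in controls and 8, 13 and 7 in KOSRC1, and it overlaps Haspin on the opposite strand.

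Itgb2, the common beta chain of leukocyte integrins, was at 17.4, 16.1 and 15.9 CPM in controls and 15.8, 18.7 and 15.8 CPM in KOSRC1. The groups overlapped (log2 fold change 0.024, 95% interval -0.22 to 0.27, edgeR adjusted p = 0.881), and without library 2 the value was -0.061 (adjusted p = 0.54). Its alpha partners were near 0. Itgal had 16 counts in controls and 7 in KOSRC1 (ratio 2.26, 95% counting interval 0.879 to 6.49), Itgam had 2 and 0, and Itgax had 2 and 1. Itgad had 6, 1 and 3 counts in controls and none in KOSRC1. Itga9, which pairs with beta1, had 1 count in controls and none in KOSRC1.

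Leukocyte markers were examined beside these chains. Of 11, 10 were in the table and 2 were tested, and they summed to 32.1 to 34.0 CPM in controls and 24.7 to 29.9 CPM in KOSRC1. Nearly all of that was Cd14 (31.5 and 25.9 CPM on average), while Ptprc, the pan-leukocyte marker, had 7 counts in controls and 1 in KOSRC1, and Cd3e, Laptm5 and Tyrobp had at most 3 counts each over all libraries. Lyz2, a myeloid marker, was the tested marker called lower, with 42 counts in controls and 13 in KOSRC1 (log2 fold change -1.65, edgeR adjusted p = 0.0127). Its part in the values of Itgb7 was not tested.

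Laminin alpha chains, which give a trimer its receptor contacts, had the lowest summed level of the laminin families, although Lamb3 and Lamc3 were each below Lama3 and Lama4 in mean TPM. Lama4, the chain of vascular and muscle laminins, was at 0.933, 0.651 and 1.25 CPM in controls and 1.79, 1.57 and 1.82 CPM in KOSRC1. The groups did not overlap, and the chain rose 1.83-fold (log2 fold change 0.87, SE 0.257, 95% interval 0.27 to 1.47, edgeR adjusted p = 0.0346). Lama4 (gene 16775) lies on chromosome 10, from 38965515 to 39110188. Its call was lost in DESeq2 (adjusted p = 0.0619) and in 4 of the 6 fits that left out 1 library, those without KOCtrl 1 (0.109), KOCtrl 2 (0.113), KOSRC1 1 (0.0875) or KOSRC1 3 (0.101).

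Lama3, the alpha chain of the epithelial anchoring laminin, was at 1.81, 1.89 and 2.14 CPM in controls and 1.61, 1.09 and 1.41 CPM in KOSRC1. All KOSRC1 libraries were below the controls, but the difference did not pass (log2 fold change -0.50, SE 0.206, edgeR adjusted p = 0.0948). It passed with the length and GC trends removed (-0.65, adjusted p = 0.0149). Lama1, the embryonic alpha chain, had 32 counts in controls and 23 in KOSRC1, and Lama5, the most widespread alpha chain of adult tissue, had 12 and 6. Lama2, the muscle alpha chain, had 21, 14 and 3 counts in controls and 4, 9 and 4 in KOSRC1. These overlap, since control 3 was below all KOSRC1 libraries, and the fit without KOSRC1 library 2, in which Lama2 passed the filter, called it (-1.63, adjusted p = 0.0249).

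Among laminin beta chains, Lamb2 was higher in KOSRC1. The beta2 chain is known from the synapse and the kidney filter. It was at 115, 120.5 and 126 CPM in controls and 144, 170.0 and 143 CPM in KOSRC1. All KOSRC1 libraries were above all controls, and library 2 was the highest in CPM, though the lowest of KOSRC1 in TPM (40.9, 37.4 and 39.8). The chain rose 1.26-fold (log2 fold change 0.34, SE 0.092, 95% interval 0.12 to 0.55, edgeR adjusted p = 0.0263). Lamb2 (gene 16779) lies on chromosome 9, from 108479847 to 108490530. The call was lost when any of the 3 controls was left out (adjusted p = 0.114, 0.1 and 0.0733 without KOCtrl 1, 2 and 3).

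Lamb1, the beta chain of most laminins outside the synapse and the kidney filter, was at 241, 219 and 227 CPM in controls and 215, 183 and 209 CPM in KOSRC1. All KOSRC1 libraries were below all controls, and the difference did not pass (log2 fold change -0.18, SE 0.0868, edgeR adjusted p = 0.15). It passed without library 2 (-0.11, adjusted p = 0.0427) and in the fit free of length and GC trends (-0.25, adjusted p = 0.00558). Lamb3, the beta chain of the epithelial anchoring laminin, had 1, 3 and 5 counts in controls and 1, 0 and 1 in KOSRC1, a ratio of 4.45 with a 95% counting interval of 0.921 to 42.3.

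Lamc1, the gamma chain of most laminins, was at 309.7, 323 and 313 CPM in controls and 351, 262 and 329 CPM in KOSRC1. Library 2 was below the controls and the other 2 were above them. The log2 fold change was -0.0054 (95% interval -0.27 to 0.26, edgeR adjusted p = 0.977), and without library 2 it turned to 0.11 (adjusted p = 0.0331). Lamc1 (gene 226519) lies on chromosome 1, from 153218922 to 153332786 on the minus strand. Lamc3 had 15 counts in controls and 26 in KOSRC1.

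**Figure D3:**
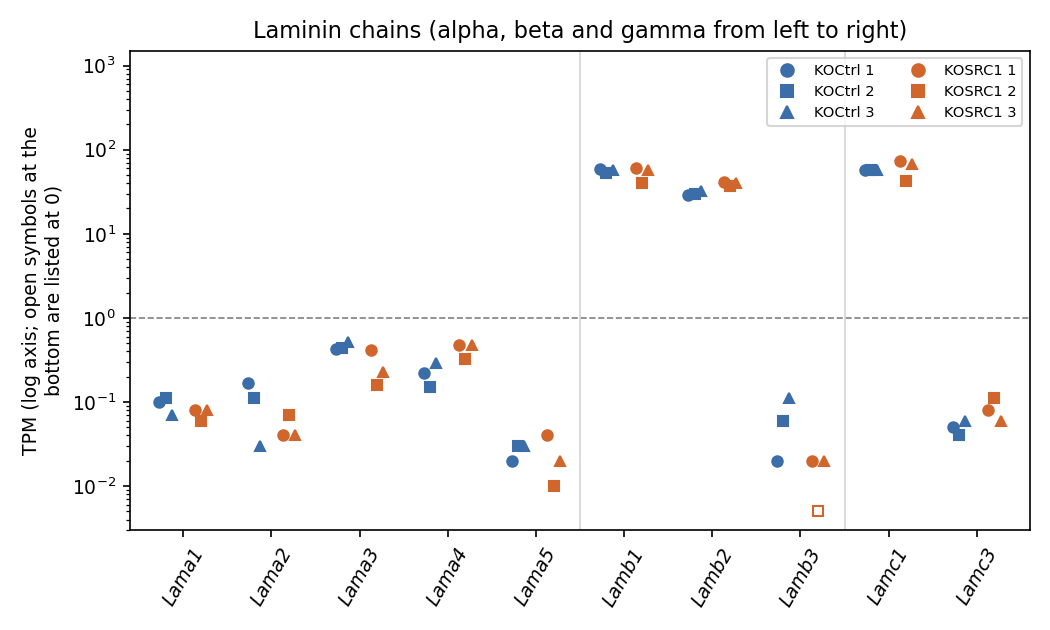
TPM on a log axis of the 10 laminin chains in each library (blue KOCtrl, orange KOSRC1; circle, square and triangle for replicates 1, 2 and 3), with a dashed line at 1 TPM and an open symbol for a value listed at 0. Lamb1, Lamb2 and Lamc1 lie far above every alpha chain, all of which stay below 1 TPM.

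To pair the chains, levels were compared in TPM within each library, with no test. Summed over the family, laminin alpha chains held 0.94, 0.84 and 0.93 TPM in controls and 1.05, 0.62 and 0.84 TPM in KOSRC1. Lamc1 held 56.8, 57.4 and 58.0 TPM in controls and 72.9, 42.0 and 66.8 TPM in KOSRC1. The alpha chains thus amounted to 1.57 ± 0.0995% of Lamc1 in controls and 1.39 ± 0.118% in KOSRC1 (SD, n = 3 each), with overlapping values. Laminin beta chains held 88.6, 82.0 and 88.9 TPM in controls and 101, 77.0 and 96.7 TPM in KOSRC1.

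Of 13 known laminin trimers written down for this comparison, 4 had all chains past the filter, those of Lama3 or Lama4 with Lamb1 or Lamb2 and Lamc1. In each of these the alpha chain was the lowest, and none of the 13 trimers had all chains at 1 TPM or more (0 of 13). Lama3 held 0.43, 0.44 and 0.51 TPM in controls and 0.42, 0.16 and 0.23 TPM in KOSRC1, while Lama4 held 0.22, 0.15 and 0.29 TPM in controls and 0.47, 0.32 and 0.47 TPM in KOSRC1. Lama3 was thus above Lama4 in all 3 controls and below it in all 3 KOSRC1 libraries. In KOSRC1 1 this order rested on 27 counts of Lama3 and 30 of Lama4. Lama3 TPM did not follow its counts closely, with 24 counts at 0.23 TPM in KOSRC1 3, and Lama3 was not called.

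Of 24 known integrin pairs, 22 had both chains in the table, 10 had both past the filter and 7 had both at 1 TPM or more. Those 7 were alpha3, alpha6, alpha7, alpha5 and alphaV with beta1, alpha6 with beta4 and alphaV with beta5. Laminin receptors made up 4 of them. The laminin-binding chains Itga3, Itga6 and Itga7 were 16.7 ± 0.386% of all alpha chain TPM in controls and 17.9 ± 1.11% in KOSRC1, with overlapping values. The lower chain of the pair of alpha6 and beta4 was Itgb4 in 5 libraries, at 5.08 to 6.10 TPM, and Itga6 in KOSRC1 library 2, at 5.07 TPM. Chains without a partner past the filter were Itgb7, Itgb2 and Itga2b, of which Itgb2 reached 8.31 to 9.71 TPM.

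Shares of single chains in their families were computed in TPM. Those of the called chains Itga3, Lamb2 and Itgb5 rest on the same libraries as their calls. Itga3 made up 29.3, 27.5 and 27.6% of the TPM of Itga3, Itga6 and Itga7 in controls and 37.0, 50.4 and 41.7% in KOSRC1. Lamb2 made up 32.6, 35.9 and 35.9% of laminin beta chain TPM in controls and 40.6, 48.5 and 41.2% in KOSRC1. Itgb5 made up 23.6, 24.3 and 24.1% of integrin beta chain TPM in controls and 26.0, 34.7 and 26.4% in KOSRC1, so that library 2 was well above the other 2. None of these 3 shares overlapped between the groups, and library 2 had the highest share of the 3 KOSRC1 libraries in each. Its TPM was nevertheless the lowest of KOSRC1 for Itga3 (9.1, 7.5 and 9.58), Lamb2 (40.9, 37.4 and 39.8) and Itgb5 (82.8, 78.2 and 82.5). The sums by which they were divided were lower too, at 319, 225 and 313 TPM for the beta chains. The highest share is thus not the highest level. Itgb1 was the major beta chain, with 67.1 ± 0.634% in controls and 65.0 ± 5.73% in KOSRC1 (SD, n = 3 each). Among alpha chains, Itga5 held 61.9 ± 1.85% in controls and 58.0 ± 7.75% in KOSRC1, and Itgav held 19.5 ± 1.71% and 21.8 ± 6.63%. These last 3 shares overlapped between the groups.

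**Figure D4:**
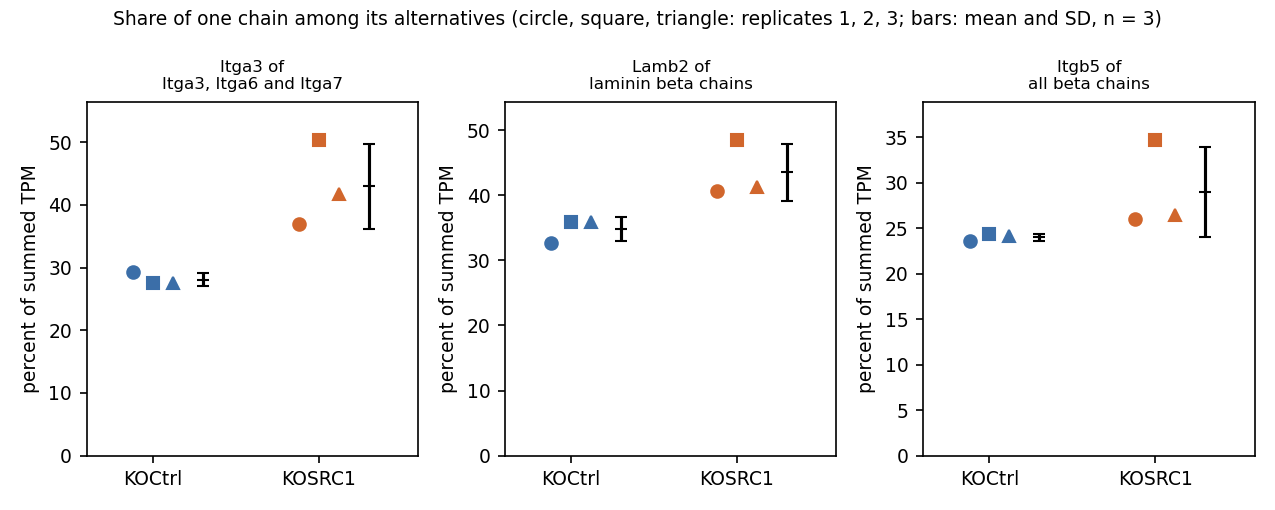
Share of 1 chain in the summed TPM of its alternatives, in percent, in each library (blue KOCtrl, orange KOSRC1; circle, square and triangle for replicates 1, 2 and 3), with the mean and SD of 3 libraries as bars. KOSRC1 lies above the controls for Itga3, Lamb2 and Itgb5, and library 2 (square) is the highest KOSRC1 value in each panel. The TPM of these chains was the lowest of KOSRC1 in that library.

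The distance of KOSRC1 library 2 from the other 2 was uneven over the chains. In log2 CPM it lay below their mean by the most for Itgb8 (-1.53), Itgav (-1.0), Itga6 (-0.89) and Itga1 (-0.88), and above it for Itgb4 (0.29), Itga7 (0.27) and Lamb2 (0.24). It was the lowest of the 3 for 9 of the 19 tested chains, and the median over all genes was 0.021. Across 11484 tested genes with a known transcript length, this difference had a Spearman correlation of -0.60 with the length of the longest transcript and 0.50 with its GC content, and across the 19 chains -0.46 with length. These points share the same 3 libraries. The part of length or GC content in single chains was not tested beyond the fits given above.

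**Figure D5:**
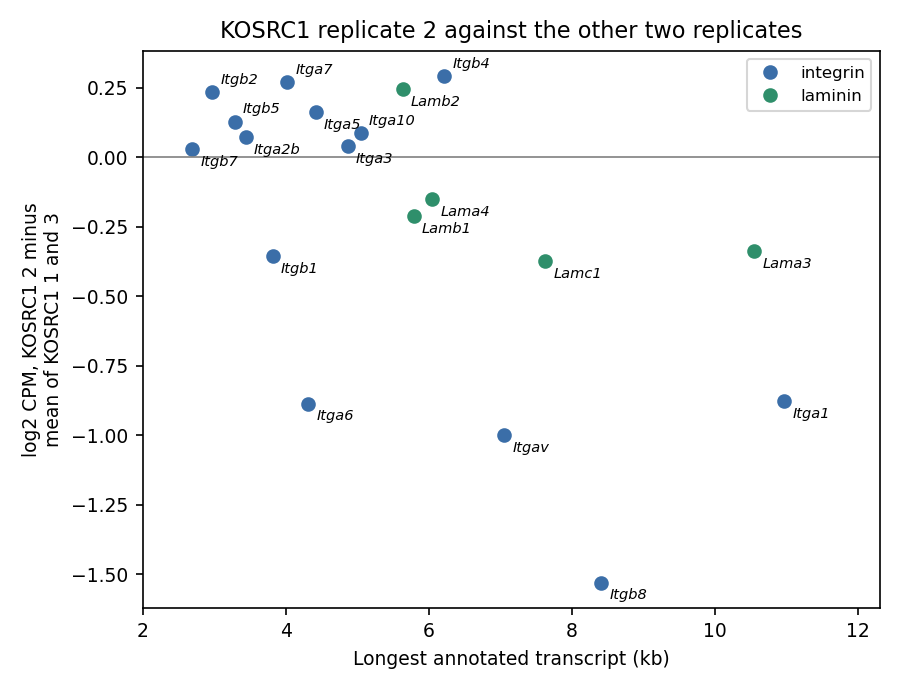
Log2 CPM of KOSRC1 library 2 minus the mean of KOSRC1 libraries 1 and 3, against the length of the longest annotated transcript in kb, for the 19 tested chains (blue integrin, green laminin). Itgb8, Itgav, Itga6 and Itga1 lie farthest below 0.

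Basement membrane proteins and other laminin partners were described from a list of 30 genes, of which 26 were in the table and 16 tested. Of these, 8 were called higher and 1 lower (56.2%, against 35.7% of all genes, 17.1% higher and 18.5% lower), and 7 did not pass. The median log2 fold change was 0.42, and 0.016 over all genes. Without KOSRC1 library 2, 10 were higher and 2 lower, against 69.6% of all genes called. Plec, the plakin that links beta4 integrin to keratin filaments, rose from 262 ± 3.06 to 677 ± 39.6 CPM (SD, n = 3 each), a log2 fold change of 1.37 (edgeR adjusted p = 5.28e-05). Ntn1, a laminin-related guidance protein, rose from 75.8 ± 3.79 to 206 ± 23.2 CPM (1.44, adjusted p = 0.00013). The basement membrane collagens Col18a1 (1.49, adjusted p = 0.000529) and Col4a2 (0.65, adjusted p = 0.000547) also rose. Col7a1, the anchoring fibril collagen that ties the epithelial laminin to the dermis, was the called gene that fell, from 48.0 ± 3.41 to 17.0 ± 1.28 CPM (-1.50, adjusted p = 8.62e-05). The remaining 4 called genes, chosen for naming after their values were seen, were Col4a1 (0.79), the perlecan gene Hspg2 (0.74), Sparc (0.67) and Dag1 (0.94), which encodes dystroglycan, a laminin receptor outside the integrin family, and all 4 rose.

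The integrin adhesion complex holds actin linkers, kinases, adaptors and small GTPases. It was described from 46 genes, 45 in the table and 43 tested. Of these, 15 were called higher and 6 lower (48.8%, against 35.7% of all genes), 22 did not pass, and the median log2 fold change was 0.23. Without KOSRC1 library 2, 20 were higher and 11 lower, against 69.6% of all genes called. In total 13 were called without KOCtrl 1 and 12 without KOCtrl 2, against 21.9% and 20.4% of all genes. The number lower was 3, 2 and 3 without KOCtrl 1, 2 and 3, and 3 without KOSRC1 3. Of all genes, 12.4%, 11.6% and 11.5% were called lower without KOCtrl 1, 2 and 3, and 13.1% without KOSRC1 3. The 5 called genes with the smallest adjusted p were mixed in direction. Nedd9, a scaffold of the p130Cas family, fell from 5.84 ± 0.139 to 1.41 ± 0.252 CPM (SD, n = 3 each; -2.04, edgeR adjusted p = 0.000181), and Tns1, a tensin, rose from 5.78 ± 0.612 to 16.7 ± 1.54 CPM (1.53, adjusted p = 0.000234). Kank2 (0.67), Parva (0.62), the parvin of the complex with integrin-linked kinase, and Tgfb1i1 (1.01), the paxillin relative Hic-5, rose as well.

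Ligands other than laminins were described from 54 symbols, 42 in the table and 28 tested. Of these, 10 were called higher and 6 lower (57.1%, against 35.7% of all genes), 12 did not pass, and the median log2 fold change was 0.23. Without KOSRC1 library 2, 16 were higher and 10 lower, against 69.6% of all genes called. Without KOCtrl 1, 2 or 3 or KOSRC1 3, 6 were higher and 6 lower. In these 4 fits, 9.42%, 8.79%, 8.91% and 11% of all genes were called higher. Those called lower were 12.4%, 11.6%, 11.5% and 13.1% of all genes. The 3 collagen VI chains on the list, which can assemble into 1 protein, did not move together. Col6a1 rose from 242 ± 7.19 to 646 ± 2.36 CPM (SD, n = 3 each; 1.42, edgeR adjusted p = 3e-05) and Col6a2 rose from 52.3 ± 2.88 to 126 ± 8.84 CPM (1.27, adjusted p = 9.16e-05), while Col6a3 fell (log2 fold change -4.39, adjusted p = 2.33e-06). Spp1 (osteopontin) fell too, from 102 ± 2.27 to 7.47 ± 0.184 CPM (-3.77, adjusted p = 2.33e-06). So did Ccn1, from 249.8 ± 20.2 to 105 ± 6.97 CPM (-1.25, adjusted p = 0.000137). The part of the fibroblast and mural markers in these values was not tested.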

How the data were processed

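RNA sequencing of 3 KOCtrl and 3 KOSRC1 libraries was analysed. The table deposited by the authors holds, per the file headers, read counts, FPKM and TPM per gene. The deposited read counts are expected counts (88.9% are whole), and the deposited TPM were made by the authors. Which program and annotation gave them is not stated. HISAT2, StringTie, SAMtools and the build GRCm38.p6 are listed, with no roles, in the submitters' processing notes. FPKM and the group averages were not used.

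Expected counts were rounded. Genes passing filterByExpr (minimum count 10, minimum total 15, smallest group 3) were tested with edgeR 4.0.16 in R 4.3.3 (TMM scaling, robust quasi-likelihood test, two-sided, Benjamini-Hochberg over 11656 genes), and an adjusted p under 0.05 was called. CPM are TMM-scaled, SE is the standard error of a log2 fold change, and intervals cover 95%. The chains followed from the naming rule, and 1 gene that it gives is not reported here. The chains, lists and tests were chosen with earlier results of these data known. All chains are named, and from each list up to 5 called genes with the smallest adjusted p, plus genes making up a count of 5 or fewer. The main fit and some of the alternatives below were tested on simulated data. Unlike the data here, these held no library that stood apart and no library trend in length or GC content. Alternatives tried were upper-quartile and RLE scaling, a mean of at least 10 CPM or no filter, DESeq2 1.42.0, limma 3.58.1 on log2(TPM + 1) and log2(TPM + 0.1) for genes with a mean of at least 1 TPM, leaving out each library, a replicate block, and removing library trends in length and GC content (splines with 5 degrees of freedom, known for 98.5% of tested genes). Count ratios of untested chains cover counting error only.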

Additional observations from a re-analysis of the deposited data

How the results depend on the processing

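Of the 6 called chains, Itga3 and Itgb5 were called in all 16 alternatives, Itgb7 in all 15 and Itga10 in all 13 in which they were tested, Lamb2 in 11 of 16 and Lama4 in 8 of 13. The count of called chains (6; 5 higher, 1 lower) was 3 (3 higher, 0 lower) with a mean of at least 10 CPM, where 11 chains were tested, Itgb7 not among them, and 35.4% of all genes were called, and 4 (3 higher, 1 lower) in limma on log2(TPM + 1) and on log2(TPM + 0.1), where 13 were tested and 28.2% and 28.1% of all genes were called. With no filter (24.8% of all genes called), 2 were lower, Itga2 and Itgb7. Leaving out each library gave 4 to 16 called chains, 3 to 11 higher and 1 to 5 lower. The upper ends are without KOSRC1 2, where 69.6% of all genes were called, and 4 were called without KOCtrl 1 or KOCtrl 2. The share of all genes called was 21.9%, 20.4% and 20.4% without KOCtrl 1, 2 and 3, 27% without KOSRC1 1 and 24.2% without KOSRC1 3. With length and GC trends removed, 4 were lower, and 4 also with the replicate block added, where 22.8% and 23.5% of all genes were called lower. Chains counted as expressed were 19 by the filter, 13 by TPM and 18 by CPM. The adhesion list (21 called) had 13 in limma at either pseudocount and 12 to 31 without single libraries, 12 of them without KOCtrl 2, 13 without KOCtrl 1 and 31 without KOSRC1 2. The ligand list (16 called) had 12 to 26, with 26 without KOSRC1 2. RLE and upper-quartile scaling changed no chain's call or direction.

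Directions turned for Lamc1, Itga5, Itga6 and Itgb2 and for no other tested chain. Lamc1 was 0.037 in limma at either pseudocount and -0.092 to 0.11 without single libraries. Itga5 was -0.068 with length and GC trends removed, with or without the block, and -0.040 to 0.043 without single libraries. Itga6 ran from -0.21 to 0.23 and Itgb2 from -0.061 to 0.064 in the same fits.

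Same-numbered control and KOSRC1 libraries had correlations of 0.19, 0.323 and 0.0802 in their deviations. KOSRC1 3 correlated more with KOCtrl 1 (0.216) than with KOCtrl 3, and the numbers were not taken to pair the libraries. The value for KOCtrl 2 and KOSRC1 2 was the highest of all pairs. KOCtrl 2 was at -0.276 and -0.286 with KOSRC1 1 and 3, and KOSRC1 2 at -0.232 and -0.103 with KOCtrl 1 and 3. Deviations from a group mean cancel out over its libraries, so these negative values are not independent of that for the libraries numbered 2. Whether the libraries numbered 2 share a deviation was not tested. A replicate block made Itga7 pass (-0.41, adjusted p = 0.0363), so that 2 chains were lower, changed no other chain's call and moved the share of all genes called to 37.2%. The 15 chains under the filter were not in the test of all 6 libraries. With no filter all 34 were tested, and Itga2 was called among those 15.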
